A study of Homo sapiens with 6 samples.

Results

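The genes described here are the cytosolic ribosomal protein genes of H358 cells, an established human lung adenocarcinoma line of epithelial cells. They were chosen by gene symbol (RPL or RPS with a number and at most 1 of the letters A, X or L, plus RPSA, RPLP0, RPLP1 and RPLP2) and by a mean level of at least 1 CPM (counts scaled to a common library total). Of the 57445 genes in the table, 83 matched the symbols and 78 reached that level. The 2 paralogues RPL39L and RPS27L were set apart because their symbols end in L. The other 76 are called core members: 30 of the small ribosomal subunit (RPS) and 46 of the large one (RPL and RPLP). RNA was sequenced in 6 libraries, 2 in each of 3 groups. WT is the parental line with wild-type BRMS1, and C1 and C2 are clones that the labels list as isogenic with the A273V change of BRMS1v2 on both copies. Each clone is a single line, all groups grew in the same serum medium, and no group received another treatment per the labels. How the clones were made, what the replicate number marks and whether replicates came from separate cultures is not given in the sources used here, so a p-value here speaks of the spread among these 6 libraries and no more.

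A ribosome is built from ribosomal RNA and a single copy of most ribosomal proteins, so cells make these proteins in near equal amounts. Much of that balance is set by translation and by decay of surplus protein. The transcripts of ribosomal protein genes are abundant and long-lived in dividing cells. They begin with a cytosine followed by pyrimidines, the terminal oligopyrimidine (TOP) motif, through which mTORC1 signalling, via LARP1, controls their translation. Transcript levels therefore do not give the rate at which the proteins are made.

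Of the sequence features searched for, the TOP motif was the one that most core members had in the promoter table of RefSeq (build GRCh38.p14), which had an entry for 62 of the 76. The table gives 250 bases before and 50 after each listed start. A C at the listed start followed by at least 4 pyrimidines was found in 46 of the 62 members (74.2%) against 5.14% of 27305 gene symbols. With the C allowed within 10 bases of the listed start on the same strand, the shares were 91.9% and 38.4%. The windows printed next, 15 bases before the listed start and 15 from it on, belong to members that the results return to. Capitals mark the pyrimidine run that opens at the listed start, followed as far as the window goes.
RPL7A, chr9:133348203-133348232, plus strand: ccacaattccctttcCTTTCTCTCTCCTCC
RPL22, chr1:6199581-6199610, minus strand: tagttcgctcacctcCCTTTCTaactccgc
RPS24, chr10:78033848-78033877, plus strand: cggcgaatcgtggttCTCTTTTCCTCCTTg
RPSA, chr3:39406705-39406734, plus strand: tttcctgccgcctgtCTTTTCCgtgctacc
RPLP0, chr12:120201097-120201126, minus strand: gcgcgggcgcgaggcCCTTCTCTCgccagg
RPS14, chr5:150449725-150449754, minus strand: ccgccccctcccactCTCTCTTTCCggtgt
RPL41, chr12:56116618-56116647, plus strand: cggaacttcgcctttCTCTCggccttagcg
RPS3, chr11:75399503-75399532, plus strand: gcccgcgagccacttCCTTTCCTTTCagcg
RPS27L, chr15:63157463-63157492, minus strand: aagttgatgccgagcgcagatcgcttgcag

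RPS27L, a paralogue set apart, had no such run in its window. Over the whole windows of 250 and 50 bases, with both strands searched, CCGGAAG was found in 22 of the 62 core members (35.5%) and in 12.2% of all symbols. AAGATGGC, which can overlap CCGGAAG by its first letters, was found in 6 (9.68% against 3.52%), TATAAA in 5 (8.06% against 14.0%) and CACGTG in 4 (6.45% against 8.77%). The CACGTG of RPS28 begins 6 bases before the listed start, and capitals mark it here, at the centre of the window.
RPS28, chr19:8321478-8321507, plus strand: ctctccccgaagCACGTGactcctctccgc

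The libraries held between 27527867 and 37146270 gene counts, and core members took 4.23% to 4.92% of them. The share was 4.70% and 4.74% for the WT libraries, 4.92% and 4.23% for those of C1, and 4.56% and 4.40% for those of C2. The means were 4.72% ± 0.034 for WT, 4.58% ± 0.490 for C1 and 4.48% ± 0.119 for C2 (SD over 2 libraries). The clone values lay on both sides of WT, and an exact two-sided permutation test of the 4 clone libraries against the 2 WT libraries gave p = 0.467, where 0.0667 is the smallest that this design allows. The ratio of small-subunit to large-subunit counts was 0.563 and 0.586 in WT, 0.547 and 0.551 in C1 and again 0.547 and 0.551 in C2. Each clone library was below both WT libraries in this ratio, with p = 0.0667 in the same exact test. The ratio sums counts, so members with many counts weigh most in it. RPS3 and RPS2 differed from WT by -0.32 and -0.43 on the log2 scale in the mean of the clones. Of the 30 small-subunit members 16 had positive and 14 negative differences, with a median of 0.001, against 0.06 for large-subunit members. The part of single members in the ratio was not tested. Counts of genes on the mitochondrial genome, which share the denominator, took 7.38%, 8.0% and 8.67% in the replicate 1 libraries of WT, C1 and C2, and 5.01%, 6.26% and 6.83% in replicate 2. In bulk libraries, fewer cells of a kind and less RNA per cell cannot be told apart. Without the mitochondrial counts the group means were 5.03% in WT, 4.93% in C1 and 4.86% in C2.

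**Figure D1:**
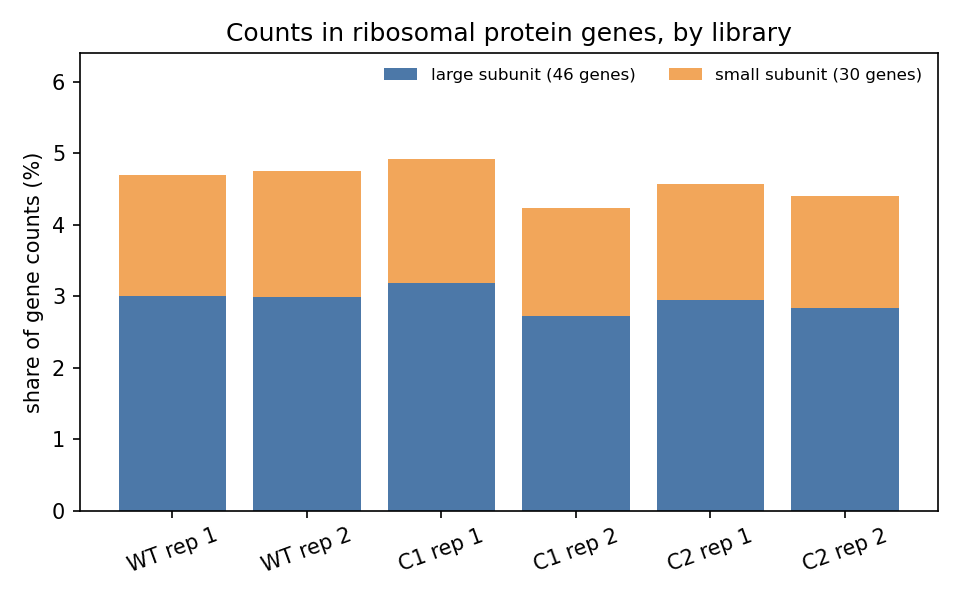
Share of all gene counts (%, vertical axis) in the 46 large-subunit and 30 small-subunit core members, stacked, for each of the 6 libraries (horizontal axis). The libraries range from 4.23% in C1 replicate 2 to 4.92% in C1 replicate 1, and the WT pair is the closest.

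All 6 epithelial markers (EPCAM, CDH1, KRT8, KRT18, KRT19 and KRT7) were above 10 CPM in every library, with a sum of 5554 to 7360.5 CPM. The alveolar markers SFTPB, SFTPC and SFTPA1 were below 1 CPM in every library, while NKX2-1 and SFTA3 were above 10 CPM. Fibroblast genes summed to 37.3 to 70.3 CPM, from COL1A1 and LUM, with COL1A2, DCN and PDGFRB below 1 CPM. The 5 leukocyte genes summed to at most 5.41 CPM and the 2 endothelial genes to at most 3.82.

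Among core members, levels per kilobase of transcript spanned from 54.2 to 2386 CPM per kb (mean of the 6 libraries), with a median of 657. Transcript lengths came from GENCODE 29, where the length chosen can move a gene far: with the union of all exons the median was 127 CPM per kb. Among the highest were RPS27 (2386 ± 219 CPM per kb, SD over 6 libraries), RPS18 (2326 ± 284), RPL41 (1813 ± 296), RPL8 (1776 ± 104) and RPL12 (1764 ± 124). RPL41 encodes the shortest of the ribosomal proteins, and RPL12 belongs to the base of the stalk. RPS27 and RPS18 did not differ beyond their spread, nor did RPL41, RPL8 and RPL12 from one another. The lowest were RPS28 (54.2 ± 12.4), RPL27A (64.3 ± 6.04), RPL22 (120.4 ± 25.9), RPL37 (125 ± 7.88), RPL36A (139 ± 13.5) and RPS23 (142 ± 12). RPL37, RPL27A and RPS23 are listed with transcripts of 7686, 4916 and 3437 bases. With the union of exons RPL37 ranked 43 and RPS23 ranked 45 of the 76, so their low place rests on the transcript length used.

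The core members varied little over the 6 libraries. The SD of their log2 level had a median of 0.16 (0.05 to 0.42), against 0.23 in the 3328 other genes that were at least as high as the lowest core member. Those genes were chosen by that minimum alone and were not matched to the members by level.

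Reads can be shared with near-identical copies. Ribosomal protein pseudogenes filled 698 rows of the table, of which 407 had a count, and together they held 0.815% to 0.949% of the counts of the core members. For RPS2 its 17 pseudogene rows held 11.9% of the parent gene's counts, for RPL23A 7.08% and for RPS3A 5.39%, so the levels of these 3 genes are the least certain. Between 6.77% and 7.56% of reads were set aside as aligned to more than 1 place. Of the genes below the level minimum, 3 are paralogues of core members: RPL3L, the striated muscle form of RPL3, had 8 to 29 counts per library, RPS10L had 7 to 19, and RPL10L had 2 in a single library.

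The paralogues set apart were below their parent genes in CPM, RPS27L by far more than RPL39L. RPL39L, a form of RPL39 best known from the testis, stood at 42.1 and 25.1 CPM for WT, 50.0 and 24 for C1, 52.5 and 27.9 for C2. Its 3 replicate 2 libraries were all below its 3 replicate 1 libraries, and the groups overlapped. Per length it stood at 56.6 ± 19.7 CPM per kb against 219 ± 30.8 for RPL39, whose levels were 87.9 and 73.8 CPM for WT, 107 and 85.3 for C1, 96.3 and 76.7 for C2. With the union of exons the values were 34.8 CPM per kb for RPL39L and 41.0 for RPL39, so the gap per length depends on the length used. RPS27L, a paralogue of RPS27 known as a p53 target, was at 23.7 and 21.5 CPM for WT, 26.6 and 20.3 for C1, 29 and 23.5 for C2, with the groups overlapping. RPS27 itself was at 785 and 778 CPM for WT, 961 and 816 for C1, 941 and 859 for C2, and both of its WT libraries were below all 4 clone libraries. In the mean of the clones against WT the log2 differences were 0.20 for RPL39L (SE 0.41, edgeR adjusted p 0.94), 0.17 for RPL39 (SE 0.19, 0.86), 0.14 for RPS27L (SE 0.20, 0.91) and 0.19 for RPS27 (SE 0.16, 0.79).

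The comparison of each clone with the parental line asks whether cells with the BRMS1v2 change hold other levels of ribosomal protein transcripts. The median log2 difference of the core members was 0.06 in C1, with a range of -0.42 to 0.49, and 0.03 in C2, with a range of -0.44 to 0.59. Over all 17129 genes tested the medians were -0.005 and 0.006. Small-subunit members had medians of 0.03 in C1 and -0.03 in C2, and large-subunit members 0.06 and 0.03. In C1, 51 core members had positive and 25 negative differences, and in C2 43 and 33. In C1 the direction differed between the replicate numbers: the median was 0.18 within replicate 1 (59 of 76 positive) and -0.072 within replicate 2 (50 of 76 negative). In C2 it was 0.080 and 0.003. By edgeR's quasi-likelihood test, with Benjamini-Hochberg adjustment over all genes and calls at an adjusted p below 0.05, 0 of 76 were called in C1, in C2 and in the mean of the clones. In these 3 comparisons 0 members had an unadjusted p below 0.05, against 1348, 1156 and 1677 of the 17129 genes tested. DESeq2 also called 0 members (1.58%, 1.22% and 2.29% of all genes). The edgeR test called 0.0117% of all genes in C1, 0.0117% in C2 and 0.198% in the mean of the clones. On simulated data for C1 against WT (16844 genes), the same fit recovered 10% of 2-fold and 98% of 4-fold changes, so most 2-fold changes were missed there. The simulated data also held a shift shared by same-numbered libraries, which this fit does not take into account. The changes were put into genes drawn at random and not into the core members. What share would be recovered among core members was not tested.

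Libraries that did not overlap between groups were also counted. In C1, 11 members were higher and 9 lower in both libraries than in both WT libraries, against 17.5% and 17.6% of all genes. In C2, 18 were higher and 12 lower, against 17.5% and 17.3%. All 4 clone libraries lay above both WT libraries for 10 members and below them for 7, against 11.9% and 11.9%. C1 and C2 were set against the same WT libraries, so these counts are not independent.

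With the replicate number as a block, 0 core members were called in C1 (7.03% of all genes called). There 6 had an unadjusted p below 0.05, against 3649 of the 17129 genes tested, a larger share. In C2, 1 core member was called higher, where 1.94% of all genes were. In the mean of the clones 2 core members were called higher and 1 lower, against 4.12% and 5.63% of all genes. That is 3 of 76, below the 9.74% of all genes called in either direction. The 3 members are RPL7A, RPL6 and RPS2.

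RPL7A, a large-subunit protein whose gene hosts small nucleolar RNAs, stood at 1389.8 and 937 CPM for WT, 2003 and 1195 for C1, 1917 and 1587 for C2. Both C2 libraries were above both WT libraries, while the second C1 library was below the first WT library. Its mean was 1163 ± 320.1 CPM for WT, 1599 ± 571 for C1 and 1752 ± 233 for C2 (SD, n = 2 each). C1 differed from WT by 0.46 on the log2 scale (SE 0.33) and C2 by 0.59 (SE 0.33), with edgeR adjusted p of 0.84 and 0.85. Blocked, it was 0.44 in C1 (SE 0.15, adjusted p 0.099), 0.62 in C2 (SE 0.15, 0.036) and 0.53 in the mean of the clones (SE 0.13, 0.024). Within replicate 1 the difference from WT was 0.53 in C1 and 0.46 in C2, and within replicate 2 it was 0.35 and 0.76. In the mean of the clones the blocked call was lost without WT replicate 2 (adjusted p 0.085), C2 replicate 1 (0.10) or C2 replicate 2 (0.21), and the unblocked difference was 0.84 without WT replicate 1 and 0.27 without WT replicate 2. In C2 the blocked call was lost without the same 3 libraries (adjusted p 0.071, 0.24 and 0.64) and under total-count scaling (0.060).

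RPL6, a large-subunit protein, stood at 771 and 707 CPM for WT, 1214 and 864 for C1, 1076 and 886 for C2. All 4 clone libraries were above both WT libraries. Its log2 difference was 0.49 in C1 (SE 0.24, edgeR adjusted p 0.70) and 0.41 in C2 (SE 0.24, 0.86). Blocked, the mean of the clones differed by 0.44 (SE 0.13, adjusted p 0.047). That call was lost without WT replicate 1 (adjusted p 0.34), C1 replicate 1 (0.069), C2 replicate 1 (0.19) or C2 replicate 2 (0.24), and under total-count scaling (0.11).

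RPS2, a small-subunit protein near the messenger RNA entry channel, stood at 1258 and 774 CPM for WT, 882 and 633 for C1, 872 and 624 for C2. Replicate 2 was below replicate 1 in each group, and within each replicate number both clones were below WT, yet the groups overlapped. Its log2 difference was -0.42 in C1 (SE 0.33, edgeR adjusted p 0.87) and -0.44 in C2 (SE 0.33, 0.92). Blocked, the mean of the clones differed by -0.41 (SE 0.12, adjusted p 0.045). Unblocked, the difference was -0.43 in the mean of the clones, -0.03 without WT replicate 1 and -0.74 without WT replicate 2. The blocked call was lost without either WT library (adjusted p 0.35 and 0.057), without C1 replicate 1 (0.053) and without either C2 library (0.24 and 0.19).

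The other members named at the 2 ends of the range were not called in the mean of the clones against WT, with or without the block (edgeR adjusted p of 0.56 or above unblocked). RPL41 was at 710.0 and 708 CPM for WT, 1031 and 800.2 for C1, 996 and 856 for C2, a log2 difference of 0.38 (SE 0.18). The small-subunit genes RPS26, RPS18 and RPS3A followed with 0.32 (SE 0.19), 0.30 (SE 0.17) and 0.27 (SE 0.16). All 4 clone libraries lay above both WT libraries for RPL41, RPS18 and RPS3A, while for RPS26 the ranges overlapped. RPS3, a small-subunit protein that also acts in DNA repair, was at 1630.0 and 1738 CPM for WT, 1473 and 1176 for C1, 1375 and 1388 for C2, a difference of -0.32 (SE 0.17). RPL13 differed by -0.34 (SE 0.16), and all clone libraries lay below both WT libraries for RPS3 and RPL13. RPS28 differed by -0.35 (SE 0.23) and RPLP1, an acidic stalk protein, by -0.30 (SE 0.21), with overlapping ranges. Without WT replicate 1, the RPS28 and RPLP1 differences turned to 0.03 and 0.03.

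**Figure D2:**
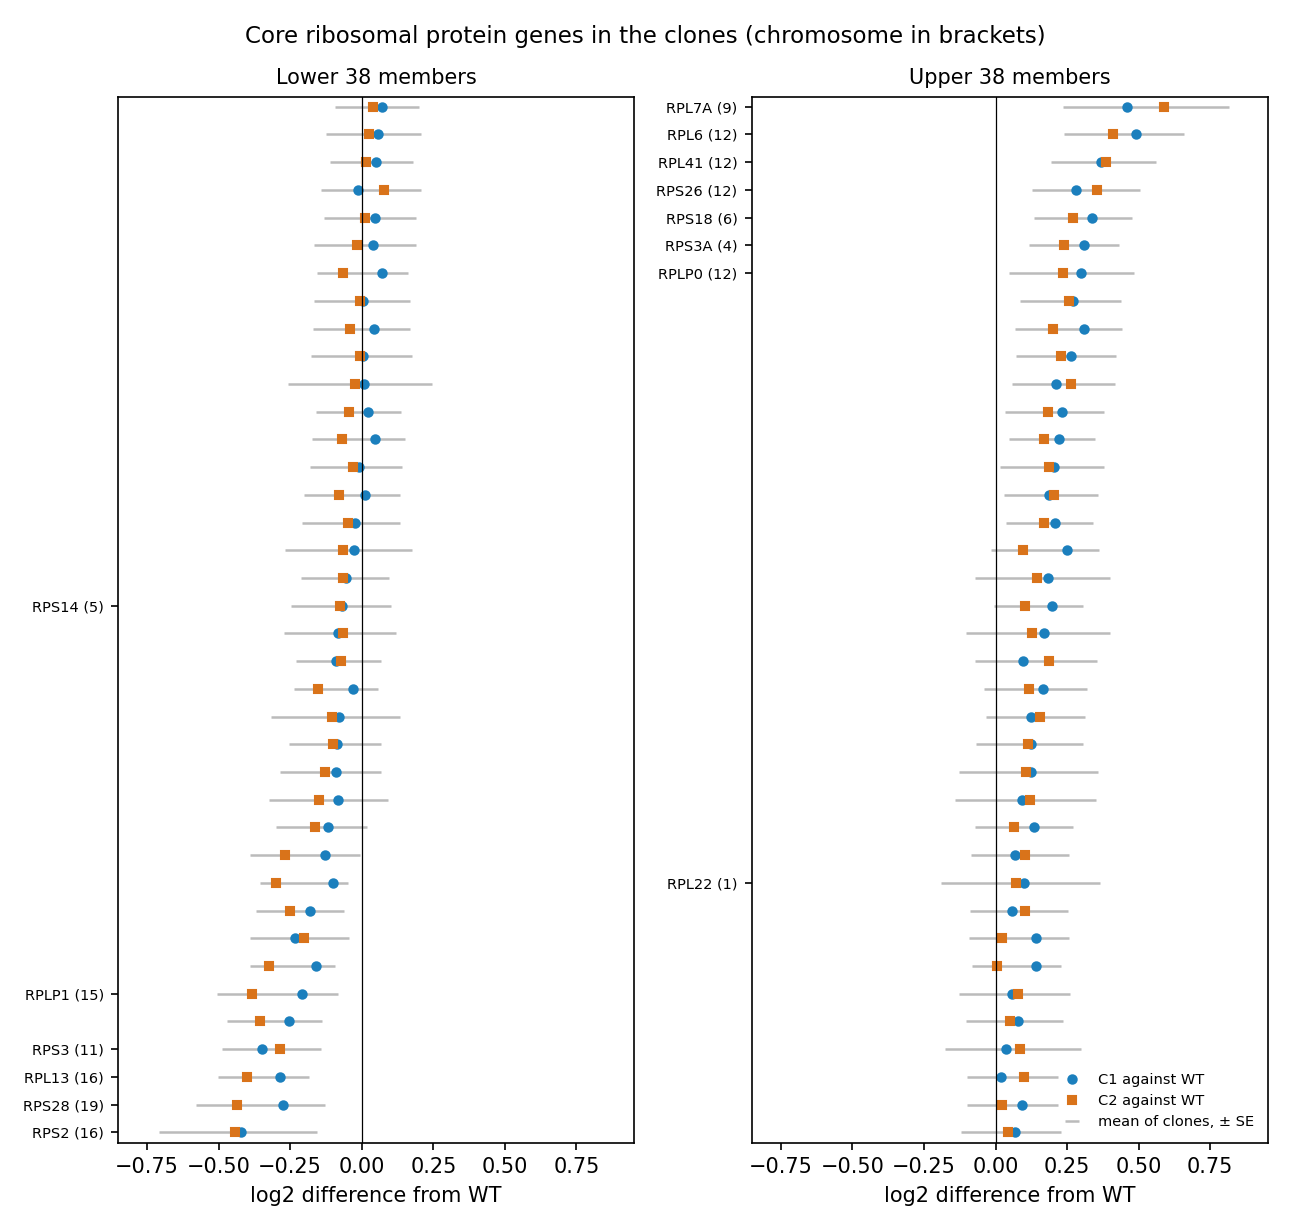
Log2 difference from WT (horizontal axis) of each of the 76 core members in C1 (circles) and C2 (squares), ordered by the mean of the clones, whose standard error is the grey bar; members the text turns on carry their names. RPS2 is lowest and RPL7A highest, and the circle and square of a member are at most 0.20 apart.

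**Figure D3:**
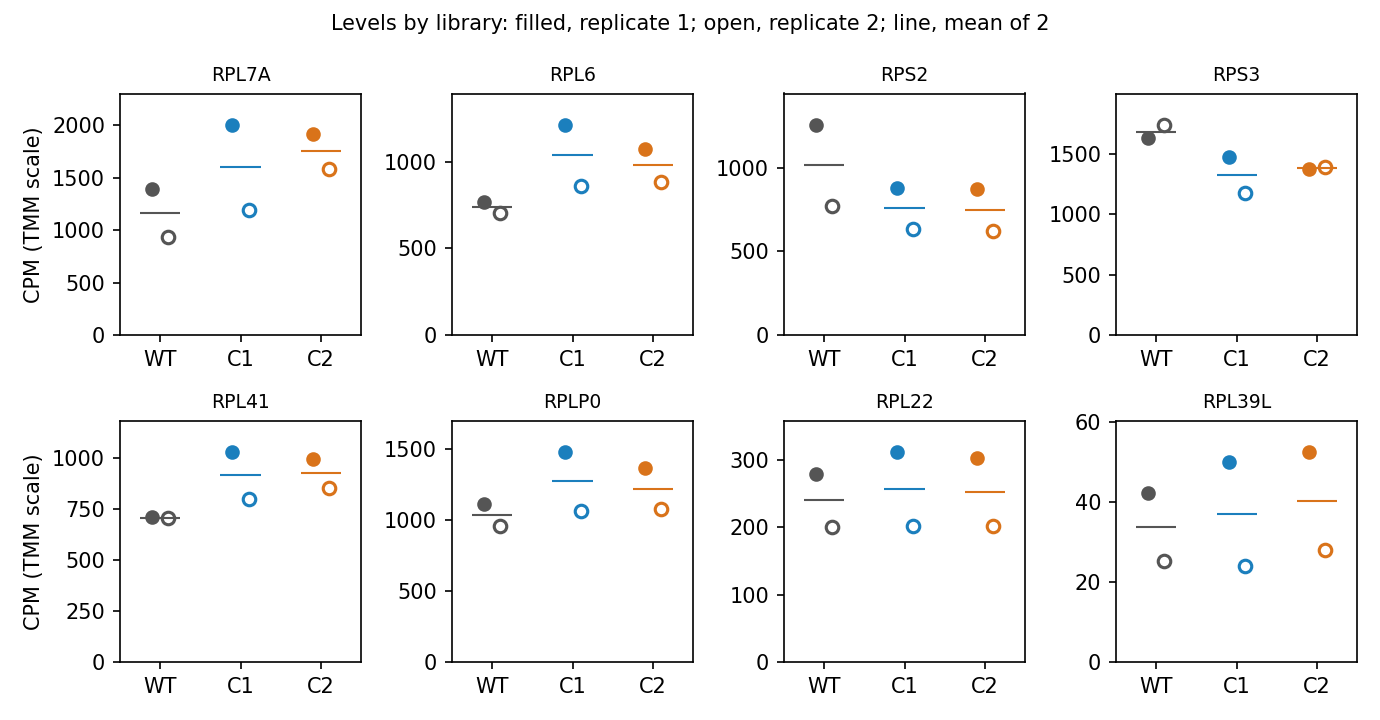
Level in CPM on the TMM scale (vertical axis, from 0) of 8 members in the replicate 1 (filled) and replicate 2 (open) libraries of WT, C1 and C2, with the mean of 2 as a line. RPL6 and RPL41 lie above WT in all 4 clone libraries, RPS3 lies below WT in all 4, and RPL22 and RPL39L are lower in replicate 2 of each group.

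The small differences of the core members went with those of the genes beside them on the chromosome. For each member, the median log2 difference of its 50 nearest neighbours was taken (25 on each side in GENCODE 29 order, core members excluded, mean log2 CPM above 2). This measure was chosen after the members' values were seen. Across the 76 members, the difference of the member and that of its neighbours correlated by r = 0.76 in C1, 0.72 in C2 and 0.74 in the mean of the clones (Spearman rho 0.76 in the last). All points of a comparison share the same libraries and scaling. With 10 neighbours on each side r was 0.70 in the mean of the clones, and with 50 it was 0.79. Within replicate 1 alone r was 0.74 in C1 and 0.73 in C2, and within replicate 2 it was 0.59 and 0.59. Among all 11610 other genes above the same level the value was 0.34, and among the 570 with a mean log2 CPM of at least 8 it was 0.49. The same measure gave 0.08 for C2 against C1 and 0.06 for replicate 2 against replicate 1.

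Chromosome 12 carries 4 core members, RPL6, RPL41, RPS26 and RPLP0, with a median difference of 0.33 in C1 and 0.37 in C2. The 612 other genes tested on that chromosome had medians of 0.18 and 0.19. RPLP0, the stalk base protein often used as a reference gene, was at 1114 and 958 CPM for WT, 1479 and 1065 for C1, 1363 and 1076 for C2. Its clone libraries overlapped WT. On chromosome 16 RPS2 and RPL13 were among the lowest members and RPS15A was not. The median of the 3 was -0.29 in C1 and -0.40 in C2, beside -0.14 and -0.17 for 528 other genes.

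Chromosome 11 carries 5 core members and, on its long arm, BRMS1. RPS3 and RPS25 lie beyond BRMS1. RPS25, a small-subunit protein used in some forms of internal initiation, was at 644 and 613 CPM for WT, 605 and 463 for C1, 538 and 556 for C2, with all clone libraries below both WT libraries. The differences were -0.35 and -0.29 for RPS3 in C1 and C2, beside -0.29 and -0.32 for its neighbours, and -0.24 and -0.20 for RPS25, beside -0.37 and -0.35. On the other side of BRMS1, RPL27A differed by 0.003 and -0.01, RPS13 by 0.02 and 0.10 and the stalk gene RPLP2 by -0.13 and -0.27, beside neighbours at -0.16 and -0.24 for RPLP2. Leaving out chromosomes 11, 12 and 16, r was 0.64 over the remaining 64 members in the mean of the clones.

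RPL7A on chromosome 9 lay 0.24 above the median of its neighbours in the mean of the clones, RPL6 lay 0.23 above and RPS2 lay 0.26 below. RPS28 (-0.32) and RPLP1 (-0.37) lay farthest from their neighbours among the 76. The GC content of the transcript also went with the differences. It spans 42.1% to 63.6% in the core members, with a median of 49.6%, and correlated with the mean difference of the clones by r = -0.46 over the 76 members, against -0.095 over 11688 genes. The parts of chromosome, GC content and genotype in these differences were not tested.

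**Figure D4:**
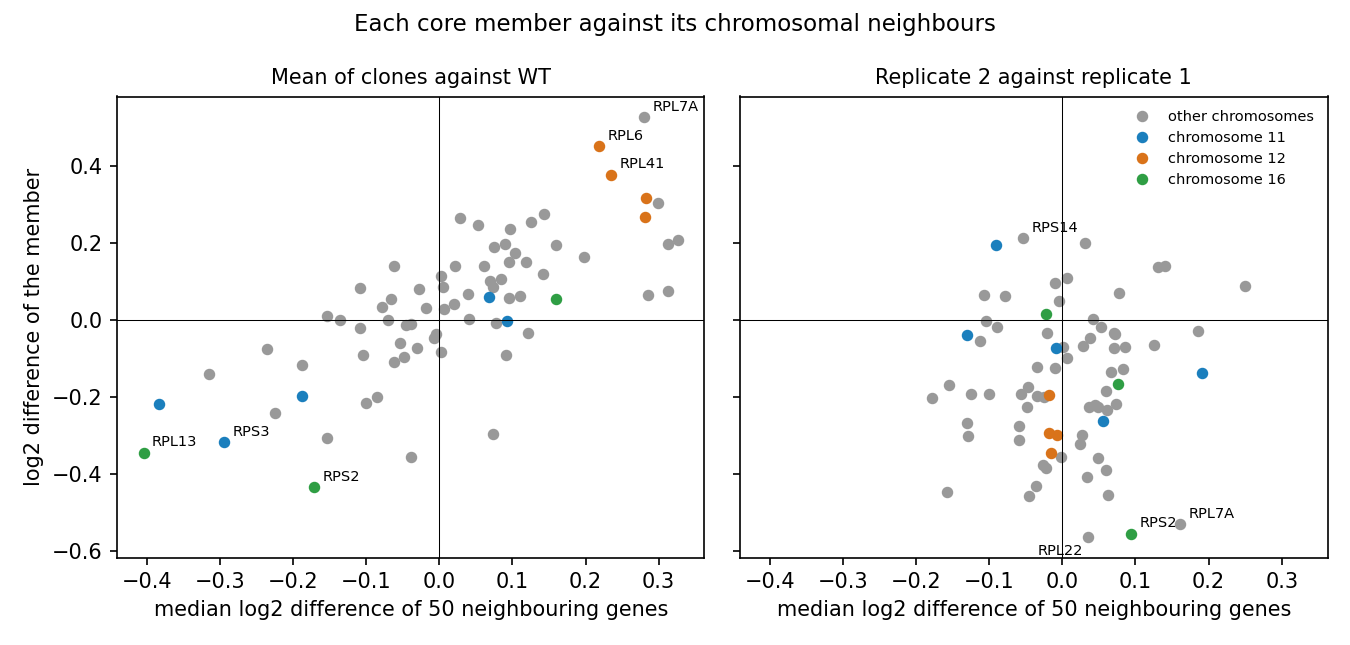
Log2 difference of each of the 76 core members (vertical axis) against the median log2 difference of its 50 chromosomal neighbours (horizontal axis), for the mean of the clones against WT (left) and replicate 2 against replicate 1 (right), with chromosomes 11, 12 and 16 coloured. The points rise along a diagonal on the left (r = 0.74) and form no line on the right (r = 0.06).

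The comparison of C2 with C1 sets 2 clones of 1 listed genotype against each other. The median log2 difference of the core members was -0.03, with a range of -0.20 to 0.13, which is narrower than either clone's range against WT. By edgeR 0 of 76 were called, with 0 at an unadjusted p below 0.05, against 61 of the 17129 genes tested. DESeq2 and the blocked fit also called 0 members. The edgeR test called 0.0% of all 17129 genes here. Both C2 libraries were above both C1 libraries for 0 members and below them for 5 (7.21% and 7.41% of all genes). The lowest were RPL36 (-0.20), RPLP1 (-0.17), RPS28 (-0.16), RPL28 (-0.16), RPL39 (-0.15) and RPLP2 (-0.14). The highest were RPS27L (0.16), RPL7A (0.13), RPL39L (0.12), RPL23 (0.09), RPL17 (0.09) and RPS13 (0.08). The median was -0.12 within replicate 1, where 70 of 76 members were lower in C2, and 0.04 within replicate 2, where 52 were higher. Without C1 replicate 1 the median was 0.08, and without C1 replicate 2 it was -0.17, so the sign depended on which C1 library was used.

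The replicate numbers were compared in the fit with group and replicate number, the same fit that gave the 3 blocked calls in the mean of the clones. In replicate 2 against replicate 1, across the 3 groups, 14 core members were called lower and 0 higher by edgeR (22 had an unadjusted p below 0.05, against 6390 of the 17129 genes tested, a larger share), and DESeq2 called 13 lower and 0 higher (11.1% and 11.3% of all genes). The edgeR test called 12.2% of all genes lower and 12.5% higher, and whether the 76 differ from all genes in these shares was not tested. The median log2 difference was -0.17, with 62 of 76 members negative, against 0.003 over all genes. The lower calls were 6 of the 30 small-subunit and 8 of the 46 large-subunit members. In all 3 groups alike, 38 members were lower and 5 higher in replicate 2, against 28.3% and 28.2% of all genes. The fall was uneven between groups: the median was -0.06 in WT (47 of 76 negative), -0.31 in C1 (68 negative) and -0.11 in C2 (53 negative). With 1 pair of libraries in each group this unevenness could not be tested. The share of mitochondrial genome counts, given above, was also lower in replicate 2 of each group, and its part in the result was not tested.

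RPL22, an RNA-binding large-subunit protein that most cells can do without, fell the most of the core members. It was at 280.1 and 200.5 CPM for WT, 312 and 203 for C1, 303 and 202 for C2, so the 3 replicate 2 libraries were close together and all below the 3 replicate 1 libraries. The log2 difference was -0.56 (SE 0.11, edgeR adjusted p 0.0032). RPS2 fell by 0.55 (SE 0.11, 0.0038) and RPL7A by 0.53 (SE 0.12, 0.0076), with the library values given above. For both, replicate 2 was below replicate 1 within each group.

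RPSA, the small-subunit protein once described as a laminin receptor, was at 389 and 324 CPM for WT, 444 and 272 for C1, 399 and 303 for C2 and fell by 0.46 (SE 0.12, adjusted p 0.016). RPS24, a small-subunit protein mutated in some cases of Diamond-Blackfan anaemia, was at 539.5 and 393 CPM for WT, 599.7 and 396 for C1, 559 and 453 for C2 and fell by 0.45 (SE 0.12, 0.013). For both genes the 3 replicate 2 libraries were below the 3 replicate 1 libraries. The other 9 called members were RPS27A, RPL7, RPL23A, RPL11, RPL3, RPS20, RPL23, RPS9 and RPLP0, which fell by between 0.34 and 0.45. RPL11 and RPL23 are known for binding MDM2, and RPS27A is made as a fusion with ubiquitin. Among the paralogues RPL39L fell by 0.91 (SE 0.14, adjusted p 0.00046), more than any core member, while RPS27L differed by -0.28 (SE 0.15, 0.18).

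At the other end no member passed the test. RPS14 was at 546 and 698 CPM for WT, 572 and 614 for C1, 552 and 627 for C2, higher in replicate 2 of each group, and differed by 0.21 (SE 0.11, adjusted p 0.19). RPL27A differed by 0.20 (adjusted p 0.25), RPL27 by 0.14 and RPL10 by 0.11. Of the called members, 9 had a promoter entry and 8 of them the TOP run at the listed start. Of the other core members, 38 of 53 had it, RPS14 among them, so members with the run were found on both sides.

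The count of 14 rested on few libraries. It was 3 without C1 replicate 1, 5 without C1 replicate 2, and 0 without either C2 library, while leaving out either WT library gave 15, with RPL6 added. A group left with a single library adds nothing to this contrast. Scaling by total counts alone gave 8 lower and 0 higher, with the median of all genes at 0.075.

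**Figure D5:**
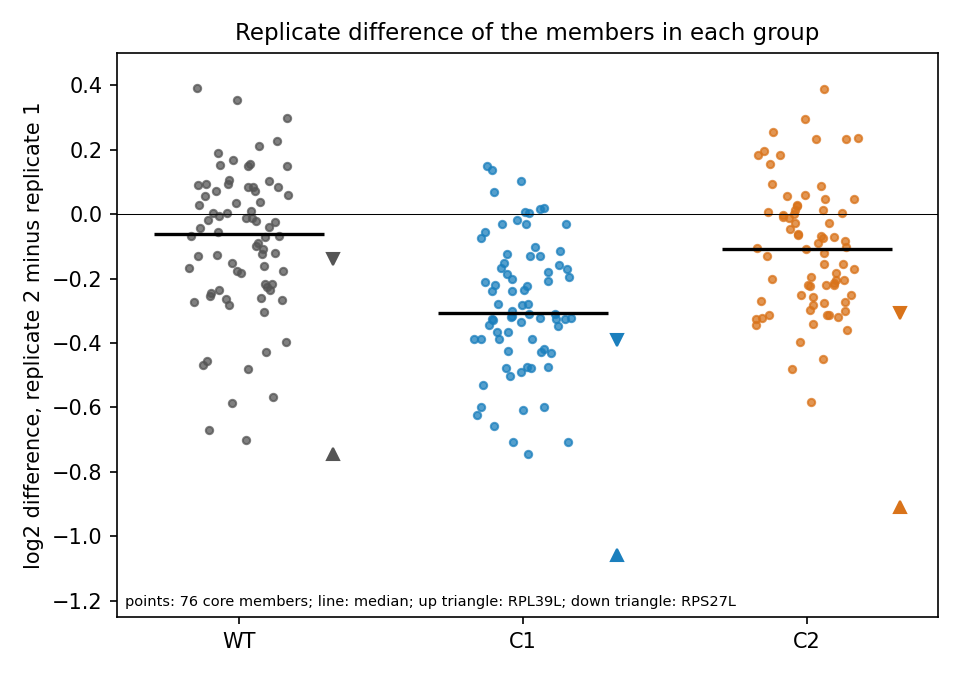
Log2 difference of replicate 2 minus replicate 1 (vertical axis) for each core member (points, spread sideways for view), by group (horizontal axis), with the median of the 76 as a line and the paralogues RPL39L and RPS27L as triangles. The medians are -0.06 in WT, -0.31 in C1 and -0.11 in C2, and RPL39L is the lowest point of each group.

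Ribosomal protein genes that the symbol rule misses gave a mixed picture over the same libraries. Of 7 tested, 1 rose and 1 fell in replicate 2 (12.5% and 12.2% of all genes). RPL22L1, a near paralogue of RPL22, was at 15.3 and 34.1 CPM for WT, 15.9 and 22 for C1, 14.3 and 17.9 for C2, with each replicate 2 library above its replicate 1 partner. It rose by 0.65 on the log2 scale (SE 0.18, edgeR adjusted p 0.021), opposite to RPL22. RPL36AL fell by 0.44 (SE 0.12, 0.016). FAU, which encodes a small-subunit protein fused to a ubiquitin-like protein, differed by -0.12 and was not called. None of the 7 was called in the clones, with or without the block.

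The genes that build and run ribosomes were described from lists by counts and medians. Ribosome biogenesis factors, 77 tested, were lower in both clones by the median (-0.20 in C1, -0.20 in C2), with 63 and 64 of 77 negative, while core ribosomal protein genes had medians of 0.06 and 0.03. By edgeR 0 biogenesis factors were called in the mean of the clones. There 5 of the 77 had an unadjusted p below 0.05, against 1677 of the 17129 genes tested, a larger share. Blocked, 5 were called lower and 0 higher, against 5.63% and 4.12% of all genes. They included NOB1, which cuts the small-subunit RNA to its final form (-0.58, SE 0.13, blocked adjusted p 0.013), DDX10 (-0.59, SE 0.14, 0.022), BOP1 (-0.81, SE 0.22, 0.035) and NOP2 (-0.49, SE 0.14, 0.038). In replicate 2, 8 of the 77 fell and 0 rose, with a median of -0.17, where 12.2% of all genes fell and 12.5% rose, so the count that fell is below the share of all genes. Among them were the nucleolar proteins FBL (-0.80, SE 0.12, adjusted p 0.00043), NCL (-0.77, SE 0.12, 0.00054), NPM1 (-0.74, SE 0.11, 0.00053) and NOP56 (-0.78, SE 0.15, 0.0037).

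Elongation and other factors with TOP transcripts, 11 tested, had medians of 0.20 in C1 and 0.21 in C2, above the core members. Blocked, 2 of them were higher in the mean of the clones: EEF1A1, the main elongation factor (0.51, SE 0.12, adjusted p 0.021), and EIF4B, a helper of the initiation helicase (0.53, SE 0.13, 0.025), against 4.12% of all genes. Unblocked, neither was called (edgeR adjusted p 0.54 and 0.46). EEF1A1 was at 2801 and 3871 CPM for WT, 4552 and 5288 for C1, 4054 and 4971 for C2, with each clone library above both WT libraries. EIF4B lies on chromosome 12, as do NAP1L1, HNRNPA1 and NACA of this list, and EEF1A1 lies on chromosome 6. Other genes on chromosome 12 had medians of 0.18 in C1 and 0.19 in C2, and those on chromosome 6 had 0.20 and 0.23. The part of chromosome in the medians of this list was not tested. In replicate 2, 4 of the 11 fell and 0 rose, against 12.2% and 12.5% of all genes.

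The counts that follow for replicate 2 stand against 12.2% of all genes that fell and 12.5% that rose. Translation initiation factors, 35 tested, had 8 that fell and 2 that rose in replicate 2. RNA polymerase I genes, 20 tested, had 5 that fell and 0 that rose, and dedicated chaperones, 15 tested, had 6 and 1, including the importin IPO5 (-0.60, SE 0.12, edgeR adjusted p 0.0029). Mitochondrial ribosomal protein genes, 76 tested, had 14 that fell and 1 that rose, MRPS6 (2.02, SE 0.15, 3.75e-06), with a median of -0.14 close to that of the cytosolic set. Of 17 small nucleolar RNA host genes, 4 rose and 1 fell. ZFAS1, a host gene with a TOP start, rose by 0.98 (SE 0.14, 0.00047). Of 14 mTORC1 and S6 kinase genes, 2 rose and 0 fell in replicate 2, near the share of all genes: DEPTOR, an inhibitor of mTOR, by 0.62 (SE 0.14, 0.0073) and EIF4EBP1, a repressor of cap-dependent translation, by 0.54 (SE 0.14, 0.012). In the mean of the clones with the block, 2 of the 14 were higher and 2 lower, against 4.12% and 5.63% of all genes. DEPTOR (0.64, SE 0.16, adjusted p 0.020) and TSC1, which restrains mTORC1 (0.54, SE 0.13, 0.022), were higher. EIF4EBP1 (-0.76, SE 0.14, 0.0044) and RPS6KB2, an S6 kinase (-0.54, SE 0.14, 0.032), were lower. Unblocked, 0 of the 14 were called, and DESeq2 called 0. Of the 14, 3 had an unadjusted p below 0.05 unblocked, against 1677 of the 17129 genes tested. The 81 ribosomal protein pseudogenes tested had 5 that fell and 2 that rose in replicate 2, with a median of -0.21.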

How the data were processed

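RNA sequencing of 6 H358 libraries was used, 2 each of WT, C1 and C2, grouped and numbered by their titles. The authors deposited 1 table of raw read counts per gene, per the file headers, with 5 read totals that were left out of library sizes. Tools listed in the submitters' processing notes are HTSeq 0.5.3, STAR 2.5.0a and cutadapt 1.6, on the build hg19. Strand setting and annotation release are not given in the sources used here, so reads of a gene and of an antisense partner could be mixed. Intervals and limits from counts cover counting error only.

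The members, the lists of other genes and the naming rule were chosen with earlier results of these data known. The rule took called members (the 6 highest and 6 lowest where more than 12 were called), the 6 at either end of the mean of the clones, of C2 against C1 and of the levels per length, paralogues with their parents, members on chromosome 11, and up to 4 genes per list by smallest p. Members named for a count or a chromosome, and genes outside the rule named beside a result, were chosen after their values were seen.

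The tests ran in edgeR 4.0.16 and limma 3.58.1 under R 4.3.3. All 78 members were among the 17129 genes kept by filterByExpr. Scaling used TMM, the trimmed mean of M values. CPM values are on that scale with no prior count unless a log2 level is named (prior count of 2). Exceptions are the minimum of 1 CPM for members and the CPM of the cell type markers, which were scaled by library totals alone. The quasi-likelihood F test used 1 mean per group over all 6 libraries (3 residual degrees of freedom), or group and replicate number for replicate 2 against replicate 1 and for the blocked values (2 residual degrees of freedom). P-values were adjusted by Benjamini-Hochberg over all genes tested. Standard errors were derived from the F statistic. Same-numbered libraries deviated together from their group means across genes (r = 0.584 for WT and C1, 0.634 for WT and C2, 0.701 for C1 and C2, all over 0.1). On that ground they were treated as paired in the blocked fit. The unblocked comparisons of the clones, which are the main ones, and the exact test left them unpaired. This pairing comes from the data and no label states it, and with 2 libraries per group a single strong source of variation could give the same 3 values. Alternatives were DESeq2 1.42.0, other scalings, no low-count filter, the block, and each library left out. The fits were tested on simulated data for C1 against WT (16844 genes). The blocked fit recovered 81% of 2-fold and 99% of 4-fold changes, with 6 false calls. A replicate shift shared by same-numbered libraries was built into these data, with the spread estimated under the block. The rates of both fits hold for that setting and do not show whether the real libraries are paired. Gene order, transcript lengths and GC content came from GENCODE 29, on another build than the counts, so gene coordinates are not given for it. Single values of some members are not reported here.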

Additional observations from a re-analysis of the deposited data

Results flagged for a closer look

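The share of gene counts in core ribosomal protein genes moved in opposite directions between the replicate numbers of the groups. From replicate 1 to replicate 2 the difference was 0.048 percentage points in WT, -0.692 in C1 and -0.168 in C2. With 1 pair of libraries per group the difference between the groups was not tested.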

How the results depend on the processing

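Under each of the unblocked alternatives (DESeq2, RLE, total-count scaling, TMM without the members, no low-count filter, and each library left out), 0 core members were called in C1, in C2, in their mean and in C2 against C1. Total-count scaling moved the median of all genes by about -0.1 (-0.107 in C1, -0.10 in C2), and with it the member median in C2 to -0.083, or -0.079 with the block. It cut the lower calls in replicate 2 to 8. With the replicate block, 1 member was higher in C2, and 2 were higher and 1 lower in the mean of the clones, with the same 3 genes and counts under RLE and under TMM without the members. The block changed no other call among the members. With the block and total-count scaling, 1 member was lower in C1, 1 lower in C2, and 1 higher and 4 lower in the mean of the clones. With the block and a library left out (chosen after seeing the data), calls ran from 0 to 2 higher in C1, from 0 to 2 higher and from 0 to 1 lower in C2, and from 0 to 3 higher and from 0 to 1 lower in the mean of the clones, and the C2 median from -0.034 to 0.13. Leaving out a library without the block, the median ran from -0.17 to 0.079 in C2 against C1. With a library left out, lower calls in replicate 2 ran from 0 to 15. In the mean of the clones without a library, RPS28 ran from -0.65 to 0.026 and RPLP1 from -0.55 to 0.033, both turning positive without WT replicate 1. Shares without mitochondrial genome genes were 5.04% in WT and 4.86% in C2 (with both paralogues included), and the median level per length was 127 CPM per kb with the union of exons. The cause of these shifts was not tested, except that a library left out leaves fewer samples. At 2 libraries per group the unblocked fit recovered 10% of simulated 2-fold changes, in data simulated with a shift shared by same-numbered libraries.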
